A study of Mus musculus with 9 samples.

Results

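The genes described here make fatty acids and cholesterol under the control of sterol regulatory element-binding proteins (SREBPs). They were taken from a fixed list of 32 symbols, of which 31 were measured by a probe set with 1 gene symbol. Acat2, the cytosolic thiolase at the entry to the sterol route, was not analysed here. The 31 were 9 genes of the fatty acid branch and 22 of the sterol branch, out of 19938 genes measured. Where a gene had several probe sets, that with the highest mean over the 9 arrays was used, which concerned 4 members. Total RNA was hybridised to Affymetrix Mouse Gene ST arrays from 5 hepatocellular carcinomas (HCC) and 4 livers called healthy, with 1 array per sample. The HCC came from AFP-NICD mice, which carried both AFP-Cre, a Cre recombinase driven by the alpha-fetoprotein promoter, and Rosa26-lsl-NICD, a Cre-dependent allele of the active Notch intracellular domain. The control livers came from mice with Rosa26-lsl-NICD alone, and the allele was therefore present in both groups. All mice were 6 to 12 months old and hybrids of 129 and C57BL/6. The labels do not say whether 2 tumours shared a mouse, so p-values here reflect array-to-array spread, which may be partly technical.

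Fatty acid synthesis starts from cytosolic acetyl-CoA, which Acly makes from citrate and Acss2 from acetate. Acaca and Acacb carboxylate it, Fasn assembles the chain and Me1 supplies NADPH. Cholesterol synthesis joins acetyl-CoA into mevalonate and isoprenoids, condenses these into squalene, and closes and trims the sterol rings. SREBPs are made as membrane proteins of the endoplasmic reticulum, where Scap binds them and Insig proteins hold them back while sterols are plentiful. When sterols are scarce, Scap carries them to the Golgi, where proteases release the active factor. SREBP1c, from Srebf1, acts mainly on fatty acid genes and SREBP2, from Srebf2, mainly on sterol genes, while Mlxipl encodes the glucose-responsive factor ChREBP.

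The promoters of 5 members are printed because these genes had large or well-separated differences in the 2 branches. Each is 300 bases from RefSeq on GRCm38.p6, written 5′ to 3′ on the strand of the gene, from 250 bases before the annotated start to 50 after it. Capitals mark CCAAT, the binding sequence of the SREBP partner NF-Y, and TCACNNNAC, a loose form of the sterol regulatory element, each on either strand. Hsd17b7 lies at chr1:169969156-169969455 on the minus strand, Sc5d at chr9:42264251-42264550 on the minus strand and Hmgcs1 at chr13:119690101-119690400 on the plus strand. Insig1 lies at chr5:28071162-28071461 on the plus strand and Thrsp at chr7:97417501-97417800 on the minus strand.
Hsd17b7: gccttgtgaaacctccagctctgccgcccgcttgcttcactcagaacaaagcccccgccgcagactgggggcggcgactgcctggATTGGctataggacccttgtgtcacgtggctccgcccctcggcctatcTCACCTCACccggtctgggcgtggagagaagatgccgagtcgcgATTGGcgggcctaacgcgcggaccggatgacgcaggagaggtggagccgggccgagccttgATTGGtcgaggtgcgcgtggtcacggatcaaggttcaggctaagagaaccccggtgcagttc
Sc5d: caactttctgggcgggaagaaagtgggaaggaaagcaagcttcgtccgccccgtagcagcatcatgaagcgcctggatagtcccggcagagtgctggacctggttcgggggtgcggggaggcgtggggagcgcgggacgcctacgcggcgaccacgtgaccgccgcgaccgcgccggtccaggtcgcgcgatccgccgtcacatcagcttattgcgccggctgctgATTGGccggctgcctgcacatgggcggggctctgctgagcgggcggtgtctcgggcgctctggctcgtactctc
Hmgcs1: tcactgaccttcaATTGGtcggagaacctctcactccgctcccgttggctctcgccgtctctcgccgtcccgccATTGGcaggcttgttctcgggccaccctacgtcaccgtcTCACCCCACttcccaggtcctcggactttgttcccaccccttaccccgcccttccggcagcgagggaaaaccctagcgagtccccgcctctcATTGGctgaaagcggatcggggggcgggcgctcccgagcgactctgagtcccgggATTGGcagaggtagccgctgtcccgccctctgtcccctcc
Insig1: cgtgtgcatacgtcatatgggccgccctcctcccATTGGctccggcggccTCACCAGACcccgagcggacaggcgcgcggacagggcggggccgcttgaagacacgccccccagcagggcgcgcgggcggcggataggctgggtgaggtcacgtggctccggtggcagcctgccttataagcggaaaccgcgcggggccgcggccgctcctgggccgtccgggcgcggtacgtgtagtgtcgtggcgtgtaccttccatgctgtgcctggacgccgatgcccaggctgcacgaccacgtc
Thrsp: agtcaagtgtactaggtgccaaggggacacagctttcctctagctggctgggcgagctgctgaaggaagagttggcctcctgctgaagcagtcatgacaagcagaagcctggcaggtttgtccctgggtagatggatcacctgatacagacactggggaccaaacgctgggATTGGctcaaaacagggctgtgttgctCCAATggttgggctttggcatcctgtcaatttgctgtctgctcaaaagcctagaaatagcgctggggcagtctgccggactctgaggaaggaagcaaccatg
The Hmgcs1 window held 4 CCAAT matches and TCACCCCAC, a classical sterol regulatory element, 137 bases before the start. The Hsd17b7 window held 3 CCAAT matches and TCACCTCAC 117 bases before the start, and the Insig1 window 1 CCAAT match and TCACCAGAC 200 bases before the start. The Sc5d window held 1 and the Thrsp window 2 CCAAT matches, and neither held TCACNNNAC. Among the 27 members with a promoter entry, 25 had CCAAT in at least 1 window, against 41.1% of all 27025 genes with an entry. TCACNNNAC was found in 6 of the 27 (Mlxipl, Hmgcs1, Nsdhl, Hsd17b7, Dhcr7 and Insig1), against 12.7% of all genes, and TCACCCCAC in Hmgcs1 alone, against 0.614%. The E-box CACGTG was found in 6 of the 27 (Mlxipl, Hsd17b7, Sc5d, Dhcr7, Scap and Insig1), against 8.09% of all genes. A match is a description of the sequence and not a measured binding site.

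Members of both branches were lower in HCC on average, and no member passed the test over all genes. The log2 change was negative for 30 of 31 members, all 9 of the fatty acid branch and 21 of 22 of the sterol branch, against 57.5% of all genes. Its median was -0.60 in the fatty acid branch, -0.70 in the sterol branch and -0.03 over all genes. The changes ran from -2.22 for Thrsp to 0.36 for Ggps1, the only member with a positive change. The 7 measured hepatocyte markers (such as albumin and transthyretin) summed to 43530 to 61157 linear units in HCC and 60932 to 66487 in control liver, with the highest HCC sum on array 5. Their median log2 change was -0.24. All HCC arrays lay below all controls for Cps1 (-0.83) and Tat (-0.88), against 3.86% of all genes, and the other 5 overlapped. In bulk tissue, fewer hepatocytes and less RNA per hepatocyte cannot be told apart.

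In limma over 19938 genes with Benjamini-Hochberg adjustment, 0 of 31 members were called lower or higher at an adjusted p below 0.05. That threshold called 0.16% of all genes lower and 0.858% higher. At an unadjusted p below 0.05, 23 members were lower and none higher, against 9.85% and 10.5% of all genes. All 5 HCC arrays lay below all 4 control arrays for 10 members, against 3.86% of all genes, and all 10 were sterol genes (Mvk, Idi1, Fdft1, Hsd17b7, Ebp, Sc5d, Dhcr7, Scap, Insig1 and Stard4). For Fdft1 this held only on the probe set used. Its other set overlapped, with 10.28 on HCC array 2 against 10.24 on control arrays 1 and 2. The groups nearly met for Mvk and Stard4. The smallest adjusted p values were 0.0501 for Sc5d, 0.0530 for Insig1 and 0.0657 for Scap. Members share regulators, so their counts are not counts of independent events.

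HCC array 5 lay apart from the other HCC arrays in many members. Without it 13 members passed, 3 of the fatty acid and 10 of the sterol branch, where 2.79% of all genes were then called lower. Those 13 were Acly, Acss2, Thrsp, Idi1, Pmvk, Fdps, Hsd17b7, Ebp, Sc5d, Dhcr7, Tm7sf2, Scap and Insig1. The remaining 4 HCC arrays lay below all control arrays for 20 members, 7 of them fatty acid genes, against 7.8% of all genes. Of these 20, Acaca and Fdft1 overlapped with the controls on their other probe set. Leaving out any other array left no member called. HCC array 5 was singled out from these same values, so fits without it are descriptions and give no separate support. Over the 19 alternative settings the adjusted p reached 0.211 for Thrsp, 0.476 for Acss2, 0.151 for Sc5d, 0.174 for Scap and 0.143 for Insig1.

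Other settings also moved the count. With array weights 7 members passed, where 1.23% of all genes were called lower, and with the replicate number as a block 5 passed, against 1.1% of all genes. With the mean of Y-linked genes as a covariate 4 passed, against 0.622% of all genes. Leaving out the dimmer genes gave 3 (Sc5d, Insig1 and Scap), against 0.933%, repeated quantile normalisation gave the same 3, against 0.236%, and averaging all probe sets of a gene gave Sc5d alone, against 0.201%. No member passed after subtraction of array medians, with trend and robust estimation, with the dimmest probe set of each gene or with Xist in the model, where 0.0552%, 0.14%, 0.13% and 0.16% of all genes were called lower. The share of all genes called lower was 0.0451%, 0.0502%, 0.015% and 0.00502% without HCC arrays 1 to 4, 0% without control array 1, 2 or 3 and 0.0602% without control array 4.

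**Figure D1:**
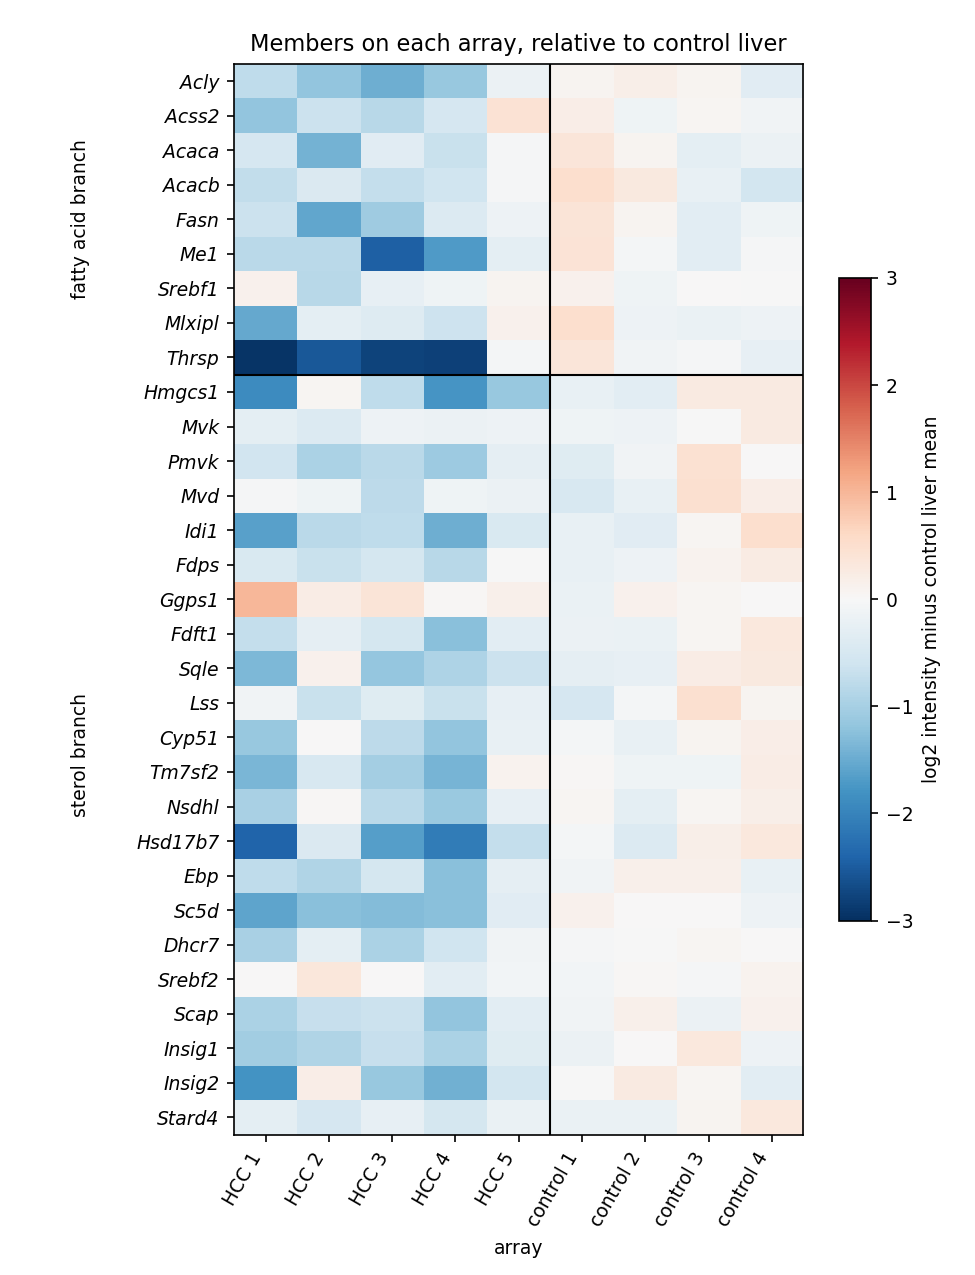
Log2 intensity of each of the 31 members minus its control liver mean, in colour, on the 5 HCC arrays (left) and 4 control arrays (right), with the fatty acid branch above the horizontal line and the sterol branch below it. The 4 HCC arrays 1 to 4 are blue in most rows, HCC array 5 is close to control in the fatty acid rows, and HCC array 2 is close to control in several sterol rows.

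**Figure D2:**
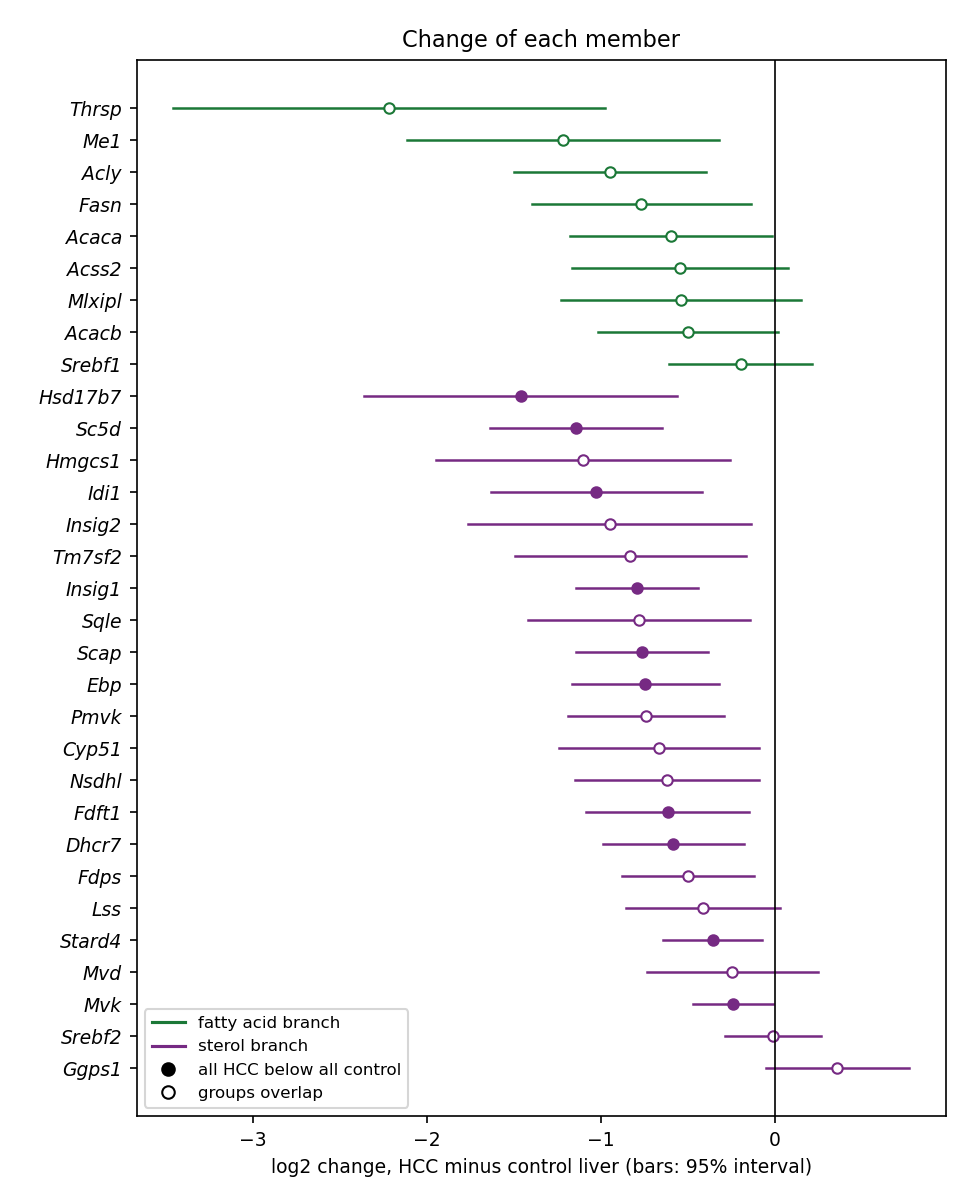
Log2 change, HCC minus control liver, of each member with its 95% interval from limma (5 HCC and 4 control arrays), green for the fatty acid and purple for the sterol branch. Filled points mark the 10 members whose HCC arrays all lay below all control arrays, and intervals are unadjusted. Ggps1 alone has a positive change.

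The samples limit these comparisons in several ways. Array medians lay between 91.5 and 101 linear intensity units, and the Pearson correlation of log2 values between any 2 arrays lay between 0.930 and 0.989. Notch1, the source of the NICD transgene, averaged 7.40 ± 0.16 in HCC and 7.11 ± 0.13 in control liver (SD, log2, n = 5 and 4; limma adjusted p = 0.160). Where its probes lie relative to the transgene was not examined, so it does not check the labels. The 5 bile duct markers summed to 905 to 3557 in HCC and 444 to 482 in control liver, and 1 of them, Sox9, was called higher in HCC. The 4 adipocyte markers summed to 257 to 310 in HCC and 289 to 399 in control liver. The sums in HCC and control liver were 1149 to 3910 and 1252 to 2799 for 5 macrophage markers, 502 to 1368 and 581 to 795 for 4 lymphocyte markers, 1318 to 2406 and 1576 to 1948 for 5 endothelial markers, and 670 to 922 and 850 to 1131 for 5 stellate cell or fibroblast markers. None of these markers was listed at 0, and the part of cell content in the results was not tested. Xist, the transcript of the inactive X chromosome, was 11.14 and 11.13 on HCC arrays 1 and 2 and 4.92 to 5.10 on HCC arrays 3 to 5, against 4.83 for control array 4 and 10.68 to 11.76 for the other controls. High Xist was thus less common among the HCC arrays than among the controls, so the groups were not balanced for it. Adding Xist to the model gave branch medians of -0.69 for fatty acid and -0.70 for sterol genes. Y-linked Eif2s3y was 6.05 and Uty 5.29 on HCC array 4, against 8.96 and 8.26 on HCC array 3. Kdm5d was 6.05 on HCC array 4 and 6.21 on HCC array 3, against 8.40 on HCC array 5 and 8.65 on control array 4. HCC array 3 was thus also low for Kdm5d among the arrays with low Xist. The Y-linked covariate therefore does not place HCC array 4 as Xist does.

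Thrsp had the largest difference among the members. It encodes Spot14, a small nuclear and cytosolic protein that promotes lipogenesis in liver and is induced by thyroid hormone and carbohydrate. Its log2 intensity was 9.65, 10.05, 9.81, 9.77 and 12.53 on HCC arrays 1 to 5, against 12.94, 12.48, 12.55 and 12.35 on control arrays 1 to 4. HCC arrays 1 to 4 stood far below every control, and HCC array 5 lay inside the control range. The geometric mean in HCC was 21.5% of that in control liver (log2 change -2.22, SE 0.55, adjusted p = 0.0871). Without HCC array 5 the geometric mean was 14.8% of control (log2 change -2.76, adjusted p = 3.45e-04). Percentages of control here are log2 changes turned back to the linear scale, not ratios of linear means.

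Among the enzymes of fatty acid synthesis, Me1 and Acly had the largest differences. Me1, the cytosolic malic enzyme, measured 10.52, 10.52, 8.88, 9.63 and 11.03 in HCC, against 11.74, 11.27, 11.02 and 11.30 in control liver. The lowest values were those of HCC arrays 3 and 4, and HCC array 5 lay just above the lowest control (43.0% of control, log2 change -1.22, SE 0.40, adjusted p = 0.149). A second Me1 probe set gave -1.21. Probe positions were not examined for the 4 members with several probe sets, Me1, Acaca, Idi1 and Fdft1, so whether each set lies at the gene was not tested. Probe set numbers mostly run by chromosome among the genes listed here. By that order the sets used for Me1, Acaca and Idi1 stand among genes of other chromosomes. Their other sets stand among genes of their own chromosome. Acly, the ATP citrate lyase, measured 8.21, 7.78, 7.49, 7.82 and 8.79 in HCC, against 9.05, 9.14, 9.05 and 8.62 in control liver. HCC array 5 again overlapped with the controls, above control array 4 (51.8% of control, log2 change -0.95, SE 0.24, adjusted p = 0.0954).

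Fasn, the fatty acid synthase, measured 8.05, 7.12, 7.62, 8.29 and 8.55 in HCC, against 9.07, 8.77, 8.37 and 8.55 in control liver. Its lowest value was on HCC array 2, and only HCC array 5 exceeded a control (58.8% of control, log2 change -0.77, SE 0.28, adjusted p = 0.178). Acaca, the cytosolic acetyl-CoA carboxylase, averaged 9.02 ± 0.51 in HCC and 9.62 ± 0.29 in control liver (log2 change -0.60, adjusted p = 0.237), and its other probe set gave -0.30. The value used for Acaca is also the median of the fatty acid branch, which was -0.54 with the dimmest probe set of each gene. Acacb, the carboxylase of the mitochondrial surface whose product restrains fatty acid oxidation, averaged 7.31 ± 0.29 in HCC and 7.81 ± 0.48 in control liver (log2 change -0.50, adjusted p = 0.259). Acss2, the cytosolic acetyl-CoA synthetase, averaged 9.01 ± 0.60 in HCC and 9.56 ± 0.15 in control liver (log2 change -0.54, adjusted p = 0.298). Its value of 9.99 on HCC array 5 was above every control and 8.38 to 9.04 on the other HCC arrays was below every control, so that it passed without HCC array 5 (log2 change -0.79, adjusted p = 0.0260).

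Of the transcription factors of this branch, Srebf1 had the smallest change among the 9 genes. It measured 8.44, 7.49, 8.07, 8.19 and 8.41 in HCC, against 8.45, 8.20, 8.32 and 8.30 in control liver. The low value was that of HCC array 2, which was also the lowest for Fasn and, on the probe set used, for Acaca. On the other Acaca probe set HCC array 2 was 7.65, and the lowest HCC value was 7.13 on HCC array 4. For Srebf1, HCC arrays 1 and 5 lay within the control range. The log2 change of Srebf1 was -0.20 with a 95% interval of -0.61 to 0.22 (adjusted p = 0.568). A decrease of the size seen for Thrsp lay outside this interval. Its probe set was read at the level of the gene, not of its isoforms. Mlxipl measured 7.47, 8.71, 8.63, 8.39 and 9.13 in HCC, against 9.50, 8.86, 8.79 and 8.86 in control liver. Its lowest value was on HCC array 1, where Srebf1 was at its highest in HCC, and its change was -0.54 (95% interval -1.23 to 0.15, adjusted p = 0.346).

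**Figure D3:**
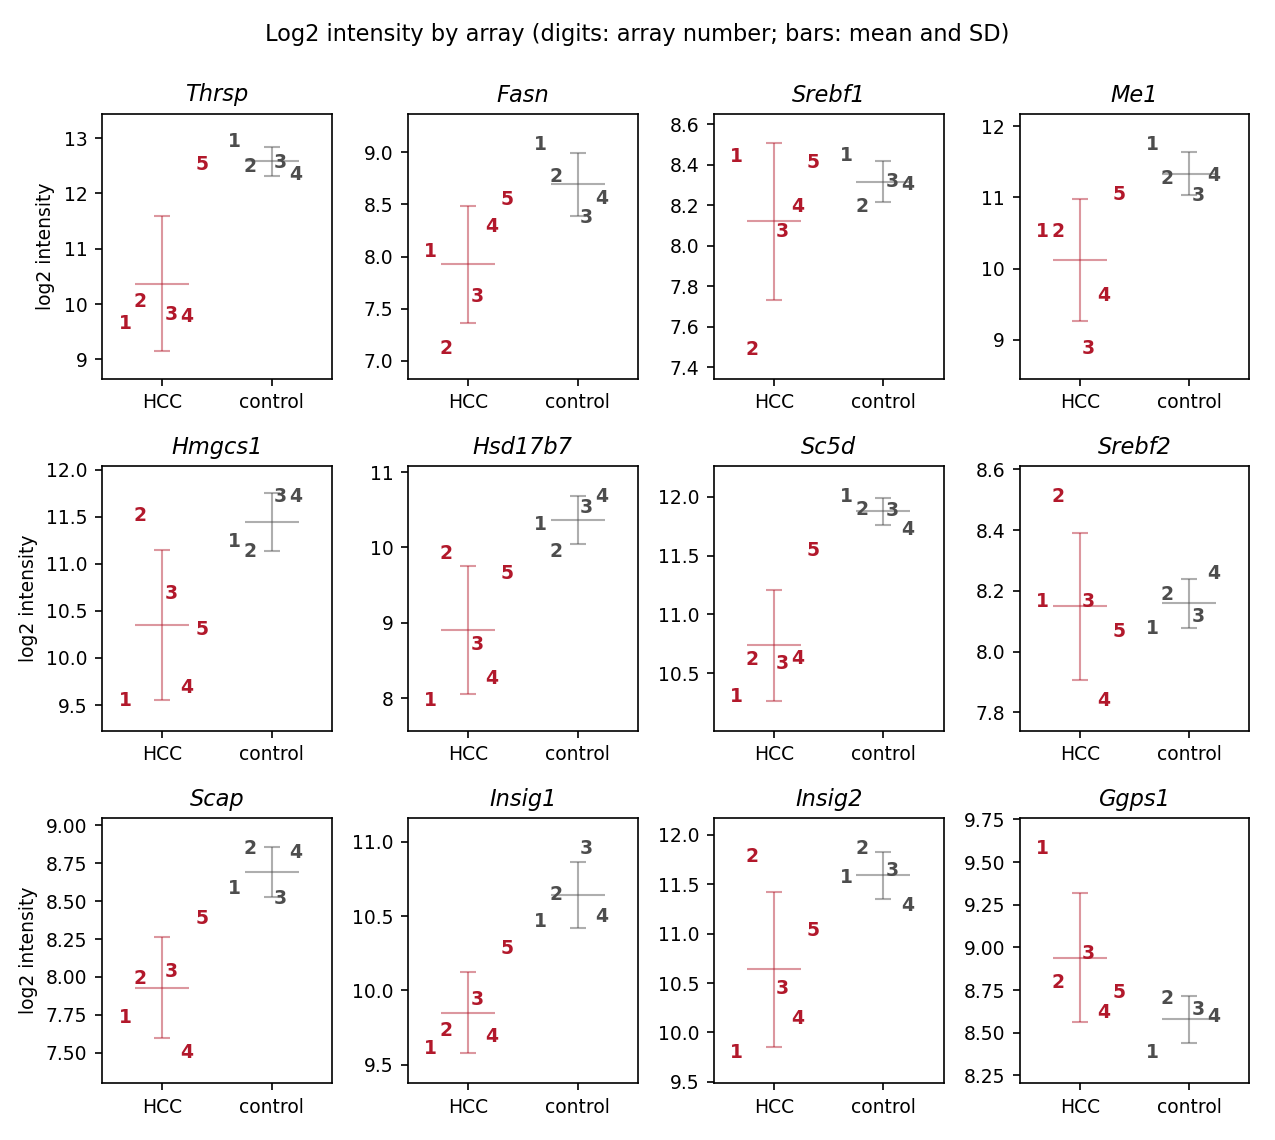
Log2 intensity of 12 members in HCC (left in each panel, red) and control liver (right, grey), where each digit is an array number and the bars give the mean and SD (n = 5 HCC and 4 control). HCC array 5 lies at or inside the control range for Thrsp, Fasn, Srebf1 and Me1, HCC array 2 does so for Hmgcs1 and Insig2, and Sc5d, Scap, Insig1 and Hsd17b7 do not overlap.

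In the early sterol route, from mevalonate to isoprenoids, 6 of 7 enzymes had a negative change. Hmgcs1, the cytosolic HMG-CoA synthase whose promoter held TCACCCCAC, measured 9.55, 11.51, 10.69, 9.68 and 10.30 in HCC, against 11.23, 11.13, 11.71 and 11.71 in control liver. HCC array 2 lay within the control range and the other 4 below it (46.6% of control, log2 change -1.10, SE 0.37, adjusted p = 0.159). Idi1, the isopentenyl diphosphate isomerase, measured 8.65, 9.47, 9.52, 8.82 and 9.83 in HCC, against 10.06, 9.94, 10.33 and 10.80 in control liver. The groups did not overlap (49.1% of control, log2 change -1.02, SE 0.27, adjusted p = 0.100), and a second probe set gave -1.17. The Idi1 values are uncertain where its probes could share signal with similar copies of the gene, which was not tested.

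Pmvk, the phosphomevalonate kinase, averaged 8.40 ± 0.32 in HCC and 9.14 ± 0.33 in control liver (log2 change -0.74, adjusted p = 0.104). Fdps, the farnesyl diphosphate synthase, averaged 10.66 ± 0.31 in HCC and 11.16 ± 0.22 in control liver (-0.50, adjusted p = 0.156). Smaller differences were seen for the kinase Mvk (-0.24, adjusted p = 0.235) and the decarboxylase Mvd (-0.24, adjusted p = 0.550). The Mvk groups did not overlap but nearly met, with 7.413 the highest HCC value and 7.416 the lowest control. Ggps1 makes geranylgeranyl diphosphate, which leaves the sterol route for protein prenylation. It measured 9.58, 8.80, 8.97, 8.62 and 8.74 in HCC, against 8.38, 8.70, 8.64 and 8.60 in control liver. HCC array 1 was the highest, 4 of the 5 HCC arrays lay above every control, and the change of 0.36 did not pass (95% interval -0.05 to 0.77, adjusted p = 0.299).

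In the late sterol route, from squalene to cholesterol, all 10 enzymes had a negative change, against 57.5% of all genes, with a median of -0.70. All HCC arrays lay below all controls for 5 of them, against 3.86% of all genes. Fdft1 was among these 5 only on the probe set used. Hsd17b7, a ketone reductase of sterol demethylation, measured 7.97, 9.92, 8.72, 8.26 and 9.66 in HCC, against 10.30, 9.95, 10.54 and 10.67 in control liver. All HCC arrays lay below all controls, HCC array 2 by 0.03 (36.3% of control, log2 change -1.46, SE 0.40, adjusted p = 0.106). Sc5d, the sterol desaturase that makes dehydrocholesterol from lathosterol, measured 10.30, 10.62, 10.58, 10.63 and 11.54 in HCC, against 12.01, 11.89, 11.88 and 11.72 in control liver. Its groups were separated and the controls lay close together (45.4% of control, log2 change -1.14, SE 0.22, adjusted p = 0.0501). Without HCC array 5 the change was -1.34 (adjusted p = 0.00105).

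The other late enzymes had smaller differences. Tm7sf2, a sterol reductase, averaged 7.85 ± 0.64 in HCC and 8.68 ± 0.16 in control liver (log2 change -0.83, adjusted p = 0.171). Sqle, the squalene epoxidase and a rate-limiting enzyme of the late route, averaged 10.19 ± 0.58 in HCC and 10.98 ± 0.30 in control liver (-0.78, adjusted p = 0.176), with 11.11 on HCC array 2 inside the control range. Ebp, the sterol isomerase, averaged 10.17 ± 0.37 in HCC and 10.91 ± 0.19 in control liver and did not overlap (-0.74, adjusted p = 0.0914). Dhcr7, which reduces dehydrocholesterol to cholesterol, averaged 7.95 ± 0.39 in HCC and 8.54 ± 0.039 in control liver and did not overlap either (-0.58, adjusted p = 0.132). The lanosterol demethylase Cyp51 (-0.67), the sterol dehydrogenase Nsdhl (-0.62), the squalene synthase Fdft1 (-0.62; -0.81 on another probe set) and the lanosterol synthase Lss (-0.41) had adjusted p between 0.157 and 0.272. Stard4, a carrier of cholesterol between membranes, averaged 9.74 ± 0.15 in HCC and 10.10 ± 0.25 in control liver (-0.36, adjusted p = 0.170). Its groups did not overlap but nearly met, with 9.893 the highest HCC value and 9.896 the lowest control.

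Of the sterol sensing machinery, Scap and both Insig genes had negative changes and Srebf2 had almost none. Srebf2 measured 8.16, 8.51, 8.16, 7.84 and 8.07 in HCC, against 8.08, 8.19, 8.11 and 8.26 in control liver. The groups overlapped on both sides, and the log2 change was -0.01 with a 95% interval of -0.29 to 0.27 (adjusted p = 0.974). Its sign turned under 7 of 19 alternatives, where it lay between -0.10 and 0.07. The Srebf2 values rest on 1 probe set, as another annotated to Srebf2 and further genes was left out. Scap, the escort of the SREBPs, measured 7.73, 7.99, 8.04, 7.50 and 8.38 in HCC, against 8.58, 8.85, 8.52 and 8.82 in control liver. All HCC arrays lay below all controls (59.0% of control, log2 change -0.76, SE 0.17, adjusted p = 0.0657; 0.0146 without HCC array 5).

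Insig1, itself an SREBP target in liver, measured 9.61, 9.73, 9.94, 9.69 and 10.29 in HCC, against 10.47, 10.64, 10.96 and 10.50 in control liver. The groups did not overlap and HCC array 5 came closest to the controls (57.8% of control, log2 change -0.79, SE 0.16, adjusted p = 0.0530; 0.0101 without HCC array 5). Insig2, whose liver transcript is repressed by insulin, measured 9.80, 11.78, 10.44, 10.14 and 11.03 in HCC, against 11.57, 11.86, 11.64 and 11.28 in control liver. HCC array 2 lay among the controls and HCC array 1 was the lowest (51.8% of control, log2 change -0.95, SE 0.36, adjusted p = 0.193). The SD over the HCC arrays was 0.27 for Insig1 and 0.78 for Insig2.

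The branches were set side by side on each array by the mean difference of their members from the control liver mean, in log2. In the fatty acid branch it was -0.998, -1.08, -1.14, -0.95 and -0.01 on HCC arrays 1 to 5, against 0.32, 0.01, -0.14 and -0.19 on control arrays 1 to 4. In the sterol branch it was -0.88, -0.38, -0.69, -0.98 and -0.30 in HCC, against -0.15, -0.10, 0.13 and 0.13 in control liver. HCC arrays 1 and 4 were low in both branches to a like degree, HCC arrays 2 and 3 were lower in the fatty acid branch, and HCC array 5 was at the control level in the fatty acid branch and below every control in the sterol branch. The sterol mean minus the fatty acid mean averaged 0.19 ± 0.39 in HCC and 0.00 ± 0.37 in control liver, a difference smaller than the spread within either group. It was 0.70 on HCC array 2 and -0.29 on HCC array 5, the extremes of the HCC arrays, and ran from -0.48 to 0.32 on the control arrays. The mean over the 7 hepatocyte markers, computed in the same way, was -0.62, -0.34, -0.48, -0.44 and -0.02 on HCC arrays 1 to 5 and -0.06 to 0.09 on the control arrays, and its part in the branch means was not tested.

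**Figure D4:**
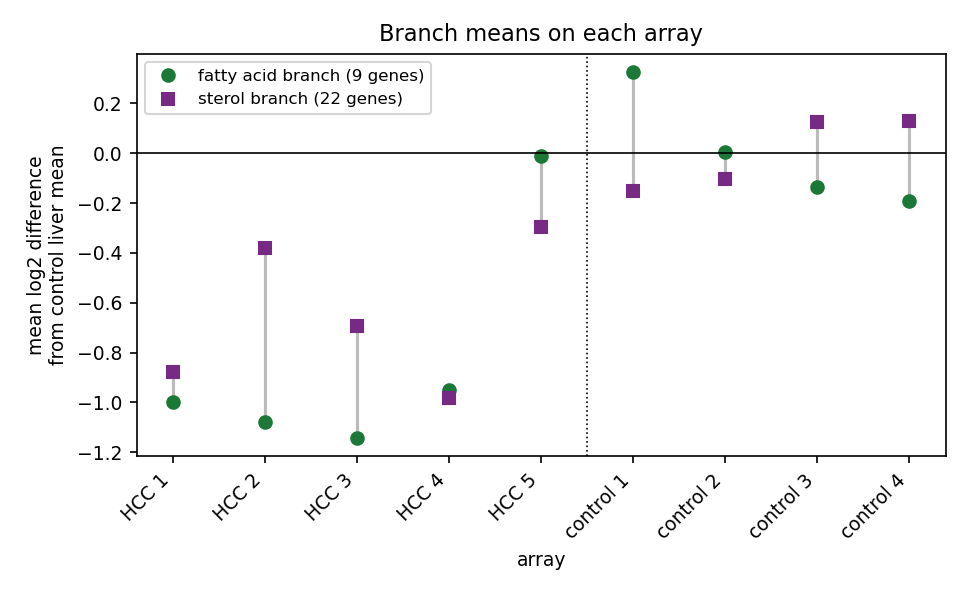
Mean log2 difference from the control liver mean over the 9 fatty acid genes (circles) and 22 sterol genes (squares) on each array, HCC at the left and control at the right, with a grey line joining both means of an array. HCC array 2 has the widest gap of the HCC arrays (-1.08 and -0.38), and HCC array 5 has a fatty acid mean at the control level (-0.01) with a sterol mean of -0.30.

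The arrays that held the extreme values also differed by branch. HCC array 5 had the highest HCC value for 8 of 9 fatty acid members and 10 of 22 sterol members, against 17.9% of all genes, and the lowest for none. HCC array 2 had the highest HCC value for 8 sterol members and for no fatty acid member, against 19.7% of all genes. HCC array 4 had the lowest HCC value for 11 sterol members and no fatty acid member, against 23.3% of all genes. Among the controls, array 1 had the highest value for 8 of 9 fatty acid members and 1 of 22 sterol members, and array 4 for none of the fatty acid and 11 of the sterol members, against 30.5% and 29.3% of all genes. The control arrays thus also differed in which branch was higher, by up to 0.52 between their fatty acid means and 0.28 between their sterol means. The SD over arrays was larger in HCC than in control liver for 25 of 31 members, against 67.9% of all genes.

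Other genes of the pathways gave a mixed picture. Of 14 further lipogenic genes 11 had a negative change, Lpin1 was lower and Scd2 higher past the threshold. Lpin1, a phosphatidate phosphatase that SREBP1 can induce, fell to 7.90 ± 0.75 in HCC, against 10.18 ± 0.28 in control liver (adjusted p = 0.0344). Scd2, a desaturase scarce in adult liver, rose to 9.51 ± 0.73 in HCC, against 6.30 ± 0.13 in control liver (adjusted p = 0.00729). Scd2 passed under all 19 alternatives and Lpin1 under 12, losing the call without HCC array 2, 3 or 4 or any 1 control array, with an adjusted p of 0.0511 to 0.126. The elongase Elovl6 averaged 8.79 ± 1.02 in HCC and 10.69 ± 0.30 in control liver (-1.90, adjusted p = 0.0866), while the main hepatic desaturase Scd1 averaged 12.96 ± 0.29 in HCC and 12.60 ± 0.75 in control liver (0.36, adjusted p = 0.541).

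None of the genes in the other 4 lists passed the threshold. Of 4 further sterol genes, Msmo1, a methyl sterol oxidase, had a change of -0.55 (adjusted p = 0.173), and Lbr, a nuclear envelope protein that has the same sterol reductase activity as Tm7sf2, had one of 0.68 (adjusted p = 0.0981), with all HCC arrays above all controls against 5.63% of all genes. Of 7 genes of SREBP processing and turnover 3 had a negative change and 4 a positive one. Paqr3, which tethers Scap in the Golgi of human cells, had a change of -0.78 (adjusted p = 0.106). Erlin2, a protein of the endoplasmic reticulum membrane, had one of 0.61 (adjusted p = 0.150), and Mbtps1, the protease that makes the first cut in SREBPs, one of 0.23 (adjusted p = 0.227), with all HCC arrays above all controls. Of 13 upstream regulators of lipogenesis 10 had a negative change, with a median of -0.21. Of 7 targets of the sterol-activated liver X receptors 5 had a negative change, and Mylip, a ubiquitin ligase, had the smallest adjusted p (-0.57, adjusted p = 0.0645).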

How the data were processed

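Array values of 9 mouse liver samples were used as deposited. Per the submitters' processing notes the authors summarised the arrays with RMA, and per the labels of the series they used GenePattern and R, with no version in the sources used here. What the authors deposited is a linear intensity for each probe set (3.91 to 21468), and it was transformed to log2 with no floor or pseudocount. Of 35512 probe sets, 21789 had 1 gene symbol in the platform annotation, whose symbols can be old, 1621 several and 12102 none, and 21698 of the first were matched by Entrez identifier to RefSeq genes of GRCm38.p6, used for names, chromosomes and promoter sequences. Genes with several probe sets (999) were represented by the one with the highest mean. HCC was compared with control liver by limma 3.58.1 in R 4.3.3 (lmFit and eBayes on group alone, two-sided tests), adjusting by Benjamini-Hochberg over 19938 genes and a threshold of 0.05. Detection calls and probe positions were not used here, so a low intensity does not show that a transcript was absent, and the number of arrays limits the precision.

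The members, the lists and the tests were chosen with earlier results of these data known. All members are named, with values on every array for the regulators and for the 4 members per branch with the largest change; Ggps1 was added after its values were seen. Other pathway genes were named if they passed the threshold or, as Scd1, Elovl6 and Xist, were fixed comparators; Msmo1, Lbr, Paqr3, Erlin2, Mbtps1 and Mylip were named after their values were seen. Branch means and medians are descriptions without a test. The fit was also run on simulated data, with independent noise for each gene and planted increases only. That cannot show how the fit behaves for genes that vary together, so nothing is drawn from it. The deviations from group means correlated at 0.32 over genes between the arrays numbered 2, and at -0.00, -0.03 and -0.08 for numbers 1, 3 and 4 (Pearson). As not every number had a correlation over 0.1, the numbers were not taken as pairs. Alternatives were a filter on dim genes, repeated quantile normalisation, array medians subtracted, a trended and robust eBayes, weighted arrays, 2 other probe set rules, Xist or Y-linked levels as a covariate, the replicate number as a block, and leaving out each array. Python 3.11.15 with pandas 2.3.3, numpy 2.4.6 and matplotlib 3.10.9 handled tables and plots.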

Additional observations from a re-analysis of the deposited data

Results flagged for a closer look

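Within 62 pairs of a member and a group, 4 had an array that stood apart from the others by Dixon's criterion, which flags about 1 in 20 groups by chance. Thrsp was 12.53 on HCC array 5, with 10.05 the next highest HCC value, and Sc5d was 11.54 on the same array, with 10.63 the next highest. Mvd was 6.98 on HCC array 3, with 7.59 the next lowest HCC value. Mlxipl was 9.50 on control array 1, with 8.86 the next highest control value.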

How the results depend on the processing

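The sign of the change held for 30 of 31 members under all 19 alternatives. The exception was Srebf2, whose change turned positive, at 1.68e-04 after subtraction of array medians, 0.035 with the Xist covariate, 0.011 with the replicate block, 0.068 without HCC array 4 (leaving out 1 array gave -0.099 to 0.068), 0.011 without HCC array 5, 3.65e-04 without control array 2 and 0.024 without control array 4. Calls were less stable. The number of members called lower was 3 with dim genes left out, 3 after repeated quantile normalisation, 7 with array weights (Acly, Ebp, Hsd17b7, Insig1, Sc5d, Scap and Thrsp), 1 with the mean of all probe sets, 4 with the Y-linked covariate, 5 with the replicate block and 0 to 13 when 1 array was left out, and it was 0 under the remaining alternatives, among them the Xist covariate. Sc5d passed under 7, Insig1 under 6 and Scap under 5 of the 19. Over all genes, 32 were lower and 171 higher; the counts were 93 and 285 with dim genes left out (9969 genes tested), 11 and 108 after subtraction of array medians, 246 and 503 with array weights, 124 and 321 with the Y-linked covariate and 220 and 259 with the replicate block. Leaving out 1 array gave 0 to 556 lower and 10 to 631 higher, with the most calls without HCC array 5 and none lower without control array 1, 2 or 3. In the replicate block HCC array 5 has a number of its own and adds nothing to the group difference, so the branch medians equal those without it, at -0.79 for fatty acid and -0.80 for sterol genes. Across all alternatives these medians lay between -0.79 and -0.48 and between -0.80 and -0.60. The cause of the changes in the calls was not tested.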
